A study of Mus musculus with 9 samples.

Results

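Cell cycle control in the cochlear duct of Prdm16 mutant embryos was followed through 9 genes: the Cip/Kip inhibitors Cdkn1a, Cdkn1b and Cdkn1c, the INK4 inhibitors Cdkn2c and Cdkn2d, the D cyclins Ccnd1, Ccnd2 and Ccnd3, and the pocket protein gene Rb1. They were chosen by name for their part in cell cycle exit and matched by Ensembl identifier, out of 54232 genes in the count tables. All 9 passed the filter on low counts in the comparison of null with WT, among 17168 genes. Bulk RNA was sequenced at E14.5 in 9 libraries, and a library holds the dissected ducts of both ears of 1 embryo. There were 3 WT (Prdm16 +/+), 3 heterozygous (Prdm16 cGT/+) and 3 null (Prdm16 cGT/cGT) embryos, littermates from matings between heterozygotes of a strain kept on the FVB/NJ background. The cGT allele is a gene trap present in every tissue of the embryo, so the loss of Prdm16 is not limited to the cochlea. Total counts per library ranged from 24095322 to 30819118.

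A cell commits to another division when D cyclins, bound to the kinases CDK4 and CDK6, phosphorylate the RB1 protein and release the E2F transcription factors that switch on S phase genes. INK4 proteins block CDK4 and CDK6, and Cip/Kip proteins act on cyclin and kinase complexes of several kinds, above all those of CDK2. In the cochlea, p27Kip1, the product of Cdkn1b, appears in the prosensory domain as its cells leave the cycle, and the neighbouring Kölliker's organ (KO) is a main domain of Prdm16 expression.

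Prdm16 RNA followed the labels. It stood at 225.1, 197.3 and 184.0 CPM (counts scaled to a common library total after TMM normalization) in WT embryos 1, 2 and 3, at 151.3, 122.7 and 141.2 CPM in the heterozygotes and at 23.7, 19.1 and 27.4 CPM in the null embryos. Defining markers of otic epithelium (Epcam, Cdh1, Pax2, Sox10 and Gata3) were present in every library, with a summed level between 2553 and 3259 CPM. Libraries differed in other tissue. The summed level of 8 mesenchyme markers was 480, 928 and 112 CPM in WT, 52.1, 97.4 and 71.6 CPM in heterozygotes and 61.8, 35.4 and 1432 CPM in null embryos 1, 2 and 3. WT 1, WT 2 and Null 3 therefore stood apart from the other 6 libraries, and none of the 8 markers was at 0 in any genotype. Those same 3 libraries also held the most RNA of 5 endothelial markers (76.7, 61.6 and 43.3 CPM, against 5.71 CPM or less elsewhere). No marker of melanocytes or of blood and immune cells was called in any comparison, and no test was run on sums. The sum of 3 melanocyte markers was 56.5 to 129 CPM in WT, 26.4 to 44.4 CPM in heterozygotes and 17.8 to 47.3 CPM in null embryos, and that of 7 blood and immune markers 33.0 to 94.8, 13.5 to 22.0 and 24.2 to 45.7 CPM. WT libraries lay above all others for the melanocyte markers, and above heterozygotes for the blood markers. Their part in the results was not tested. Log2 fold changes without some or all of WT 1, WT 2 and Null 3 are given for Cdk6, Gli1, Rb1, Ccnd2 and Ccnd3. They are also given for Cdkn1a, Cdkn1b, Cdkn1c, Cdkn2c and Cdkn2d. For other genes, Ccnd1, Mki67 and Bub1 among them, log2 fold changes are given only with these libraries.

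The order of the 9 genes in WT is given per kilobase of merged exons, since genes can be compared only per length. Cdkn1c, which encodes p57Kip2, and Ccnd1 were the most abundant, at 110.2 ± 4.08 and 105.6 ± 2.54 CPM per kb (SD, n = 3). Their ranges overlapped, though Cdkn1c lay above Ccnd1 within each WT library. Cdkn1b followed at 54.1 ± 2.71 CPM per kb, below Ccnd1 in every library. Cdkn1a, which encodes p21Cip1, stood at 19.3 ± 1.33 and Ccnd2 at 15.4 ± 4.46 CPM per kb, and these neighbours overlapped. Rb1 (9.85 ± 0.886) and Ccnd3 (9.82 ± 0.109) could not be separated, Cdkn2d (9.14 ± 0.196), which encodes p19Ink4d, lay just below them without overlap with Ccnd3, and Cdkn2c, which encodes p18Ink4c, was far lower at 1.34 ± 0.395 CPM per kb. The order depends on the length taken: per kilobase of the longest transcript Ccnd1 (133 ± 3.19) lay above Cdkn1c (118 ± 4.38) and Ccnd3 (22.3 ± 0.248) above Rb1 (12.7 ± 1.15), both without overlap. Per merged exons, Cdkn1c and Ccnd1 ranked above 98.9% and 98.8% of the 17168 genes tested on this scale, Cdkn1b above 96.5% and Cdkn2c above 27.5%. Heterozygotes and null embryos kept the same set of 3 genes at the top and Cdkn2c at the bottom, with Ccnd1 first in heterozygotes (130.4 ± 12.8) and Cdkn1c first in null embryos (121.8 ± 56.6 CPM per kb). The null order varied by embryo, since Cdkn1c was at 73.3, 108.1 and 184.0 CPM per kb in embryos 1, 2 and 3 and Ccnd1 at 96.2, 92.4 and 103.0, so that in Null 1 Cdkn1c was below both Ccnd1 and Cdkn1b (81.1). Exon models overlap a gene on the opposite strand for 6 of the 9, and the strand setting of the counting is not given in the sources used here, so reads from shared exons cannot be assigned there. The partner listed for Cdkn1c has 0 counts in every library, and those for Ccnd2 have at most 6. Others are expressed: in WT Rcbtb2, which shares 488 exon bases with Rb1, stood at 124 CPM, Lpar6, also over Rb1, at 10.2 CPM, LTO1, which shares 1100 bases with Ccnd1, at 38.2 CPM, and Bysl, over Ccnd3, at 36.2 CPM, and none was called in null against WT. Cdkn1b, Cdkn2c and Cdkn2d have no such neighbour.

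**Figure D1:**
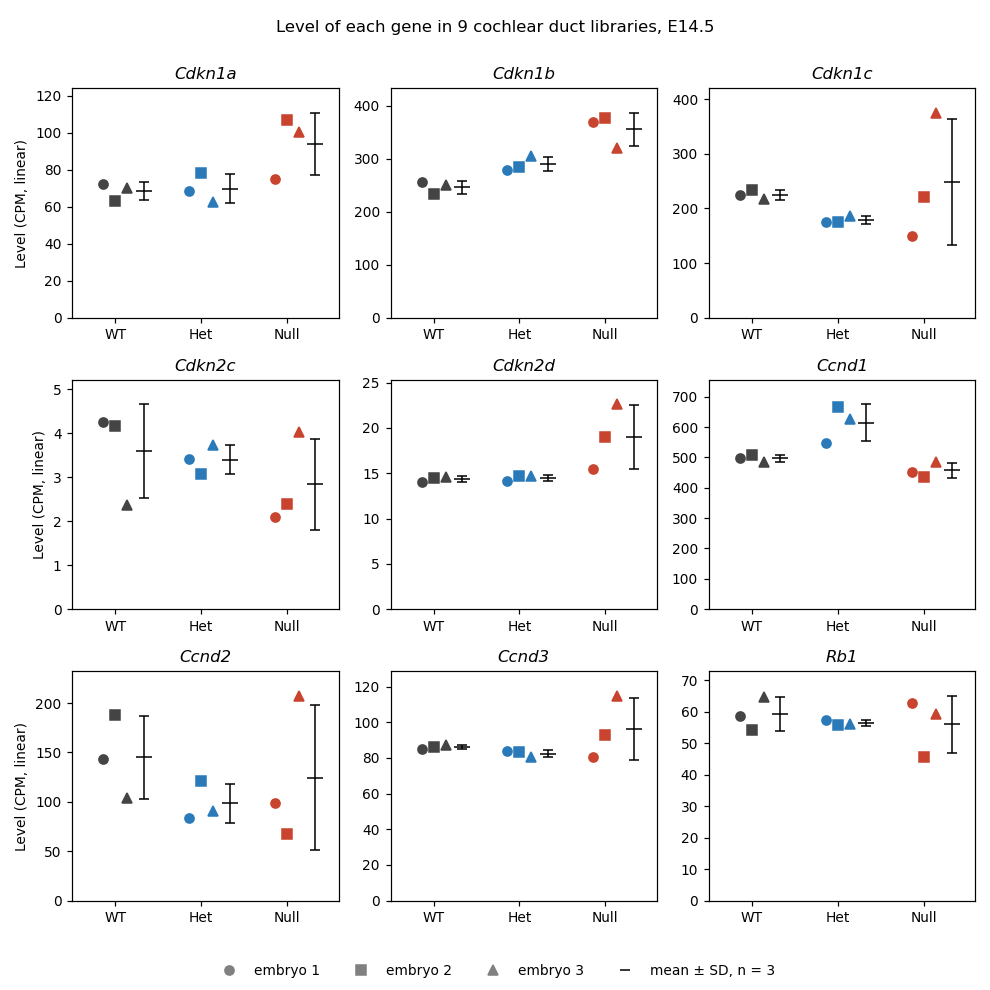
Level of each of the 9 genes in CPM (linear axis from 0) for the 3 embryos of each genotype, with the mean and SD beside the points. Cdkn1b stands higher in heterozygotes than in WT and higher again in null embryos with no overlap, Ccnd1 is highest in heterozygotes, and Cdkn1c, Ccnd2 and Ccnd3 spread widely in null embryos, with embryo 3 highest in each.

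Loss of Prdm16 was accompanied by more Cdkn1b RNA, and by no change past the threshold in the other 8 genes. A gene was called where edgeR's quasi-likelihood test gave a Benjamini-Hochberg adjusted p under 0.05 and the absolute log2 fold change exceeded 0.5. In null embryos against WT 1 of the 9 genes was called (1.71% of all genes tested were), in heterozygotes against WT 0 of 9 (0.151% of all genes) and in null embryos against heterozygotes 0 of 9 (0.615%). At an unadjusted p under 0.05 the counts were 3, 4 and 4 of 9, beside 12.2%, 13.1% and 11.4% of all genes. DESeq2 and limma-voom both called 1, 0 and 0 of the 9. Over all genes DESeq2 called 618, 319 and 354, and limma-voom 300, 11 and 100. Groups did not overlap for 4, 4 and 3 of the 9 genes, beside 19%, 18% and 18.2% of all genes. The null embryos are compared once with WT and once with heterozygotes, so these comparisons share libraries. The median log2 fold change of the 9 genes in null against WT was 0.14, beside 0.0097 over all genes.

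**Figure D2:**
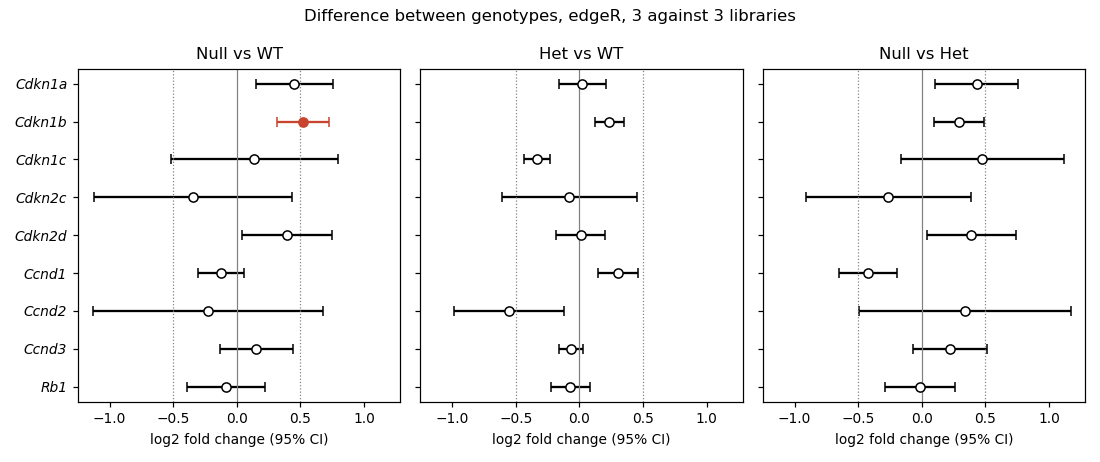
Log2 fold change of each gene (horizontal axis) with its 95% confidence interval in the 3 comparisons, each fitted by edgeR on 3 against 3 libraries, where dotted lines mark an absolute log2 fold change of 0.5 and a filled point marks a called gene. Cdkn1b in null against WT, at 0.52, is the only filled point. The widest intervals belong to Cdkn1c, Cdkn2c and Ccnd2 in both comparisons of null embryos, and to Cdkn2c and Ccnd2 in heterozygotes against WT.

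Among the Cip/Kip inhibitors, Cdkn1b (ENSMUSG00000003031, chr6:134920401-134925513 of mm10, plus strand) is the one known for cell cycle exit of the prosensory domain. Its level was 255.7, 232.5 and 251.3 CPM in WT, 279.5, 285.0 and 305.8 CPM in heterozygotes, and 369.0, 377.0 and 319.4 CPM in null embryos. Every heterozygote lay above every WT library and every null library above every heterozygote. Null embryos held 1.44 times the WT level (log2 fold change 0.52, SE 0.0879, 95% interval 0.32 to 0.73, edgeR adjusted p = 0.0304). The heterozygotes held 1.18 times the WT level (log2 fold change 0.23, SE 0.0512, edgeR adjusted p = 0.0800), and null embryos 1.22 times that of heterozygotes (log2 fold change 0.29, SE 0.0858, edgeR adjusted p = 0.265), and neither of these steps was called. DESeq2 gave an adjusted p of 0.00414 for heterozygotes against WT, below the fold threshold.

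The call of Cdkn1b rests on a narrow margin, while its direction held in every fit run. It was lost without WT 1, WT 2, WT 3, Null 1 or Null 2 (log2 fold change 0.48 to 0.55, adjusted p between 0.0543 and 0.197), and held without Null 3 (0.60, adjusted p = 0.0117). Without WT 1, WT 2 and Null 3, the libraries rich in mesenchyme RNA, the log2 fold change was 0.57 with 1 WT and 2 null libraries left and an edgeR adjusted p of 0.672, where the lone WT library is assumed to vary like the others. With the mesenchyme level as a covariate it was 0.45 with an adjusted p of 0.0299, under the fold threshold. In 10 of the 36 pairs of libraries the one with more mesenchyme RNA had more Cdkn1b and in the other 26 less, and 91.5% of the 17168 genes reached at least as many as 10. The part of mesenchyme RNA in the level of Cdkn1b was not tested.

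Marker levels of several parts of the duct are given beside Cdkn1b, with no test on the sums. The summed level of 5 prosensory markers (Sox2, Hey2, Fgf20, Lgr5 and Jag1) was 690.7, 664.1 and 730.6 CPM in WT, 835.0, 831.1 and 807.6 CPM in heterozygotes and 981.5, 853.8 and 738.9 CPM in null embryos. All heterozygote and null libraries were above all WT libraries in that sum, and Null 3, the lowest null library for it, was also the lowest null library for Cdkn1b. The summed level of 4 roof markers (Otx1, Otx2, Oc90 and Fgf9) was 8024, 7519 and 8782 CPM in WT, 9514, 9232 and 9092 CPM in heterozygotes and 10990.2, 13813 and 10397 CPM in null embryos, the same stepwise order without overlap as Cdkn1b. Most of that sum is Oc90, the only one of the 4 with that order by itself. Each of the 4 was higher in all null than in all WT libraries, as was Lmx1a of the outer sulcus, and none of these was called (edgeR adjusted p between 0.101 and 0.363). Of the 5 prosensory markers Fgf20 was called higher in null against WT (log2 fold change 1.35, edgeR adjusted p = 0.0194), Sox2 and Jag1 were higher without overlap but not called, and Hey2 and Lgr5 overlapped. The 4 KO markers, Fgf10, Tecta, Efhd1 and Clic6, were all called lower, and their sum fell from between 3033 and 3793 CPM in WT to between 1568 and 1849 CPM in null embryos. In bulk RNA a change in the number of cells of a type and a change in the RNA of each cell cannot be told apart, and the part of these cell types in the level of Cdkn1b was not tested.

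The start of Cdkn1b is shown since it is the called gene, and that of Cdkn1a as its relative in the Cip/Kip family. RefSeq windows on GRCm38.p6 (the mm10 assembly), from 250 bases before to 50 after a start, were found for 5 of the 9 genes. Capitals mark the searched letters on either strand: the GC box GGGCGG, the CCAAT box, the E2F forms TTTCCCGC, TTTGGCGC, TTTCGCGC and TTTGCCGC, the E-box CACGTG, the FoxO form GTAAACA and the GLI form GACCACCCA. The Cdkn1b window is chr6:134920151-134920450, and the Cdkn1a window, at the second of its RefSeq starts, is chr17:29093519-29093818, both on the plus strand. The window at the first Cdkn1a start, chr17:29090729-29091028, holds none of the letters and is not printed. The window of Cdkn2d, also not printed, holds 5 GC boxes and 1 CCAAT box.
Cdkn1b: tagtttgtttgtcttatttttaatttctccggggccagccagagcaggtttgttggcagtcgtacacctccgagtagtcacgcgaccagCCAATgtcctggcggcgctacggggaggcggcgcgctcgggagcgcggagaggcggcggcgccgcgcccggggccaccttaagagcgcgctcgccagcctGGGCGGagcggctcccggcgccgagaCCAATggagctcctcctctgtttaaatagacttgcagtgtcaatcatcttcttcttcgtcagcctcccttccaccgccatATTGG
Cdkn1a: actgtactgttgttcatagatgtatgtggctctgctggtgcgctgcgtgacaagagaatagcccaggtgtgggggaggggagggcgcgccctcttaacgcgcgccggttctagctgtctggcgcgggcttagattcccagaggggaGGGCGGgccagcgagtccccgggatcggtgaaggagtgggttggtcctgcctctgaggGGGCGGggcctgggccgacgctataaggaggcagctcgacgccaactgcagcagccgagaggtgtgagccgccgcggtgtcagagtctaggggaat
The Cdkn1b window holds 3 CCAAT boxes and 1 GC box, and the Cdkn1a window 2 GC boxes and no CCAAT box. Over all 32851 windows of this length, 37.4% hold a CCAAT box and 35.7% a GC box, so neither is rare. The E2F forms (2.26% of windows), the E-box (7.15%), the FoxO form (3.65%) and the GLI form (0.253%) are not in either window, which says only that these letters are not there.

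Cdkn1a (ENSMUSG00000023067, chr17:29090976-29100727, plus strand), a gene that p53 can switch on, was measured at 72.3, 63.2 and 69.96 CPM in WT, 68.6, 78.0 and 62.4 CPM in heterozygotes, and 75.1, 106.7 and 100.1 CPM in null embryos. All null values lay above all WT values, while heterozygotes overlapped both. The log2 fold change of null against WT was 0.45 (SE 0.132, edgeR adjusted p = 0.193) and was not called, although DESeq2 gave the same size with an adjusted p of 0.0353. Without Null 1, the lowest null library, it was 0.59 with an edgeR adjusted p of 0.0425 and passed both thresholds, and without the 3 libraries rich in mesenchyme it was 0.38 (adjusted p = 1.00). For heterozygotes the log2 fold change against WT was 0.02 (95% interval -0.16 to 0.21).

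Cdkn1c (ENSMUSG00000037664, chr7:143458339-143461050, minus strand) gave the smallest p of the 9 genes in heterozygotes. Its level was 224.5, 233.2 and 216.5 CPM in WT, 174.8, 174.7 and 187.0 CPM in heterozygotes, and 149.4, 220.3 and 375.1 CPM in null embryos. The heterozygotes formed a narrow group below all WT libraries, and the null embryos ran from below to above both other genotypes. Heterozygotes held 79.6% of the WT level (log2 fold change -0.33, SE 0.0462, edgeR adjusted p = 0.0363), which passes the adjusted p but not the fold threshold of 0.5. At any fold, 0.261% of all genes had an adjusted p under 0.05. Its adjusted p rose to 0.431 with the mesenchyme covariate (log2 fold change -0.26) and to 0.933 with all 9 libraries in one fit, where the wide null group enters the spread. It stayed under 0.05 in 7 of 10 alternatives that left out no single embryo, and in 1 of 6 fits that each left out an embryo (adjusted p up to 0.183). Without WT 1 and WT 2 the value was -0.28 with an adjusted p of 0.134.

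In null embryos against WT, Cdkn1c differed by a log2 fold change of 0.14 (95% interval -0.52 to 0.80, edgeR adjusted p = 0.880). Null 3 alone set that sign, since without it the value was -0.28 (adjusted p = 0.420). Null 3 held both the most Cdkn1c and the most mesenchyme RNA of the 9 libraries. Over the 36 pairs of libraries the one with more mesenchyme RNA had more Cdkn1c in 28, a number that 6.98% of the 17168 genes reached. Its part in the level of Cdkn1c was not tested.

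The make-up of the Cip/Kip family, as the share of each gene in the family's RNA per exon length, shifted with these levels. Cdkn1b made up 30.1, 27.9 and 30.5% in WT, 36.9, 36.8 and 38.1% in heterozygotes and 46.2, 37.5 and 24.9% in null embryos. All heterozygotes were above all WT libraries, and the null embryos spanned both, with Null 3 lowest of all 9. Cdkn1c was the largest part in 8 of the 9 libraries, and in Null 1 alone it was below Cdkn1b (41.8 against 46.2%). Cdkn1a stayed between 9.70 and 13.6% in every library. No test was run on shares, and without scaling by length Cdkn1b made up 45.7, 53.8 and 52.0% on average in WT, heterozygotes and null embryos.

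**Figure D3:**
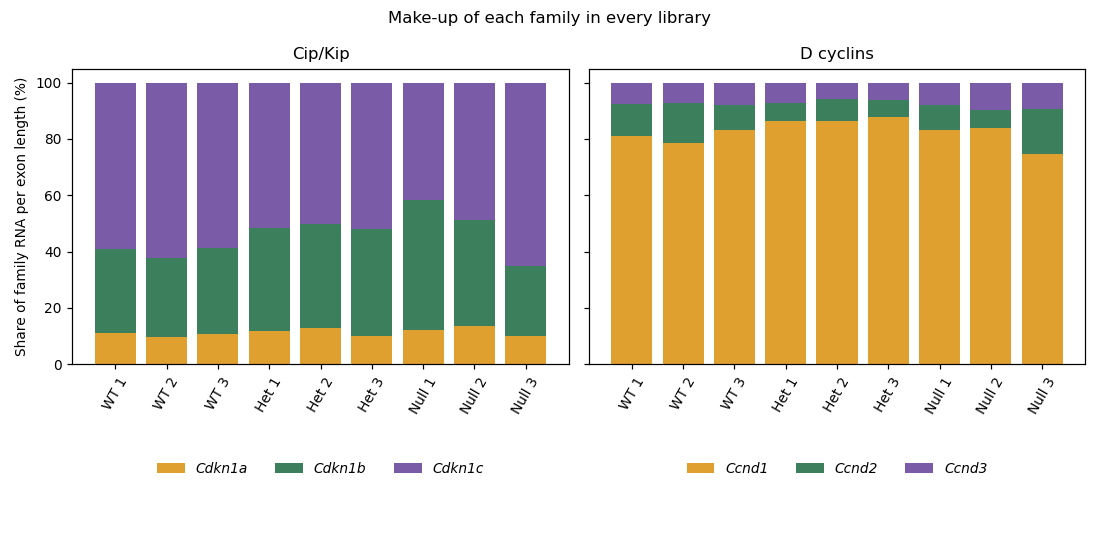
Stacked bars give the percentage of each gene in the summed RNA per exon length of its family, for the 9 libraries in order of genotype and embryo. The Cdkn1b part is between 36.8 and 38.1% in heterozygotes against 27.9 to 30.5% in WT, and the null embryos range from 24.9 to 46.2%, while Ccnd1 makes up at least 74.6% of D cyclin RNA in every library.

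Of the INK4 genes, Cdkn2d had a WT level per kilobase above 65.3% of all genes tested, and Cdkn2c was low. Cdkn2d (ENSMUSG00000096472, chr9:21288410-21291407, minus strand), whose product helps to keep hair cells from dividing again, was measured at 14.0, 14.5 and 14.6 CPM in WT, 14.1, 14.7 and 14.7 CPM in heterozygotes and 15.4, 19.0 and 22.6 CPM in null embryos. All 3 null libraries lay above the 6 others, which differed little among themselves. The log2 fold change of null against WT was 0.40 (SE 0.153, edgeR adjusted p = 0.347) and against heterozygotes 0.39 (adjusted p = 0.392), and neither was called. Without Null 3, its highest library, these values were 0.26 and 0.25, and without all 3 libraries rich in mesenchyme that against WT was 0.24. Cdkn2c (ENSMUSG00000028551, chr4:109660876-109667189, minus strand) had between 51 and 115 counts in a library, 2.11 to 4.26 CPM, and its genotypes overlapped. In null against WT its log2 fold change was -0.35 with a 95% interval of -1.12 to 0.43, so a level below 0.5 of that of WT lies within it. Without Null 3 the value was -0.67 (adjusted p = 0.353), without Null 1 it was -0.17, and without the 3 libraries rich in mesenchyme it was -0.07.

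Of the other INK4 genes, Cdkn2b, which encodes p15Ink4b, was tested and Cdkn2a was too low for the test, with 2 to 23 counts in a library. Cdkn2b stood at 4.96, 5.10 and 5.43 CPM in WT, 5.14, 5.59 and 5.85 CPM in heterozygotes and 6.65, 10.1 and 7.80 CPM in null embryos. As with Cdkn2d, the null libraries were above all others. The log2 fold change against WT was 0.66 (SE 0.197, edgeR adjusted p = 0.203) and was not called, with an unadjusted p of 0.0102.

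Ccnd1 (ENSMUSG00000070348, chr7:144929931-144939925, minus strand) carried most of the D cyclin RNA. Its level was 497.2, 509.4 and 485.5 CPM in WT, 548.0, 666.5 and 627.7 CPM in heterozygotes and 453.0, 435.2 and 485.2 CPM in null embryos. The heterozygotes lay above all other libraries, and the null libraries lay below all WT libraries, Null 3 only just. The log2 fold change was 0.30 in heterozygotes against WT (SE 0.0693, edgeR adjusted p = 0.0912), -0.42 in null embryos against heterozygotes (SE 0.0983, edgeR adjusted p = 0.148) and -0.12 in null embryos against WT (SE 0.0783, edgeR adjusted p = 0.589), and none was called. DESeq2 gave adjusted p of 0.000475, 0.00568 and 0.738 for these, each below the fold threshold. The first had an adjusted p under 0.05 in 1 of 6 fits that each left out an embryo and in 3 of 10 other alternatives, the replicate block among them (adjusted p = 0.0363), and the second in 0 of 6 and 4 of 10.

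Ccnd2 (ENSMUSG00000000184, chr6:127125162-127152193, minus strand) varied widely between embryos of one genotype. It was measured at 143.4, 187.8 and 104.0 CPM in WT, 83.7, 121.1 and 91.0 CPM in heterozygotes and 98.6, 67.7 and 207.2 CPM in null embryos. No genotype was separated from another, and the coefficient of variation reached 28.9% in WT and 58.9% in null embryos, beside 2.40% and 5.53% for Ccnd1. Heterozygotes held 68.0% of the WT level (log2 fold change -0.56, SE 0.194, edgeR adjusted p = 0.245), and it was lower in the heterozygote than in the WT embryo of the same number for all 3 numbers. Deviations of same-numbered WT and heterozygote libraries correlated by 0.282 to 0.693, and those of differently numbered ones by -0.603 to 0.409. In a fit with a replicate block, which assumes pairing by number, the value was -0.54 with an edgeR adjusted p of 0.0331. Ccnd2 passed both thresholds there and was the 1 call among the 9 genes. This fit called 197 of all genes where the fit without the block called 26. The interval of null against WT ran from -1.13 to 0.68 on the log2 scale.

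In each of the 3 genotypes the embryos ranked by Ccnd2 were in the order of their mesenchyme RNA. Over all 36 pairs of libraries the one with more mesenchyme RNA had more Ccnd2 in 34, a number reached by 0.437% of the 17168 genes. Ccnd1 was in mesenchyme order within each genotype as well, with 20 of 36 pairs over all libraries, a number reached by 40.0% of genes. With the mesenchyme level as a covariate, the log2 fold changes of Ccnd2 were 0.17 in heterozygotes against WT, 0.10 in null embryos against WT and -0.06 in null embryos against heterozygotes, all with the opposite sign to the fit without it. Leaving out the 3 libraries rich in mesenchyme gave -0.08, -0.32 and -0.25, with edgeR adjusted p of 0.612 or more. The comparison of heterozygotes with WT also moved with 1 library, since without WT 3, the WT library lowest in mesenchyme, it was -0.75 with an adjusted p of 0.0127, and without WT 2, the richest, it was -0.33 with an adjusted p of 0.617. The order was seen after the values were known, and its part in the differences was not tested.

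**Figure D4:**
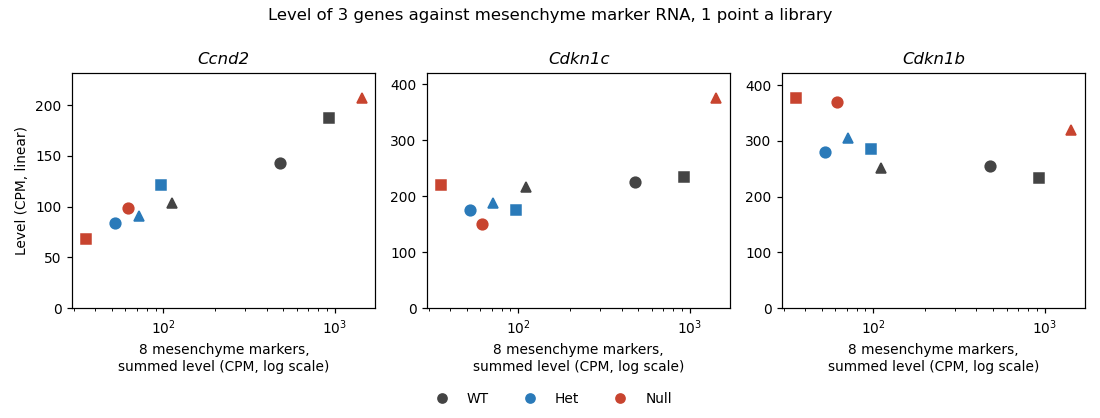
Level of Ccnd2, Cdkn1c and Cdkn1b in CPM (linear axis from 0) against the summed level of 8 mesenchyme markers in the same library (CPM, log axis), 1 point a library coloured by genotype. Ccnd2 climbs from 67.7 CPM in Null 2 to 207.2 CPM in Null 3 along the mesenchyme axis, Cdkn1c is high mainly in Null 3, and Cdkn1b is higher in Null 3 (319.4 CPM) than in WT 1 and WT 2, the other libraries rich in mesenchyme, where there is no heterozygote.

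Ccnd3 and Rb1 differed little. Ccnd3 (ENSMUSG00000034165, chr17:47505051-47599691, plus strand) stood at 85.2, 86.3 and 87.1 CPM in WT, 84.0, 83.2 and 80.3 CPM in heterozygotes and 80.4, 92.9 and 114.8 CPM in null embryos. Heterozygotes were below WT without overlap, at 95.7% of the WT mean, and null embryos spanned both. Its log2 fold change was -0.06 in heterozygotes against WT (95% interval -0.16 to 0.03, edgeR adjusted p = 0.576) and 0.15 in null embryos against WT (-0.14 to 0.44, edgeR adjusted p = 0.690), where it was 0.0067 without Null 3 and 0.26 without Null 1. Rb1 (ENSMUSG00000022105, chr14:73183673-73325822, minus strand), the brake that the D cyclins release, was at 58.8, 54.1 and 64.8 CPM in WT, 57.5, 55.9 and 56.0 CPM in heterozygotes and 62.9, 45.7 and 59.3 CPM in null embryos, all overlapping. The 95% interval of its log2 fold change was -0.39 to 0.22 in null embryos and -0.22 to 0.08 in heterozygotes, both against WT. Without the 3 libraries rich in mesenchyme the values moved from -0.09 to -0.25 in null embryos and from -0.07 to -0.20 in heterozygotes (-0.25 with the mesenchyme covariate), with edgeR adjusted p of 0.473 or more.

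Within the D cyclins, Ccnd1 made up 80.9, 78.4 and 83.1% of the RNA per exon length in WT, 86.3, 86.4 and 87.6% in heterozygotes and 83.0, 83.9 and 74.6% in null embryos. The heterozygotes lay above all other libraries, and Null 3 was lowest. Ccnd2 took 15.9% in Null 3 and 14.5% in WT 2, its largest parts, and between 6.35 and 7.86% in heterozygotes. Ccnd3 took between 5.78 and 9.61%.

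Cdk6, which encodes a kinase partner of the D cyclins, was called in both comparisons of null embryos. It stood at 20.9, 23.4 and 21.7 CPM in WT, 22.4, 24.3 and 21.9 CPM in heterozygotes and 35.6, 32.7 and 38.9 CPM in null embryos. All null libraries lay far above the 6 others, and heterozygotes overlapped WT. Null embryos held 1.62 times the WT level (log2 fold change 0.69, SE 0.108, edgeR adjusted p = 0.0231) and 1.56 times that of heterozygotes (0.64, SE 0.105, edgeR adjusted p = 0.0449), and both were called. Each call was lost in 4 of 6 fits that left out 1 embryo, with log2 fold changes from 0.63 to 0.76 against WT and from 0.58 to 0.71 against heterozygotes: without WT 1, WT 2, WT 3 or Null 1 in the first, and without Het 1, Het 2, Het 3 or Null 1 in the second. Without the 3 libraries rich in mesenchyme the value against WT was 0.65 (adjusted p = 0.499) and that against heterozygotes 0.58 (adjusted p = 0.0434). Cdk4, the more abundant kinase, was at 553 ± 28.1 CPM in WT and 576 ± 73.5 CPM in null embryos (log2 fold change 0.05, 95% interval -0.20 to 0.31).

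**Figure D5:**
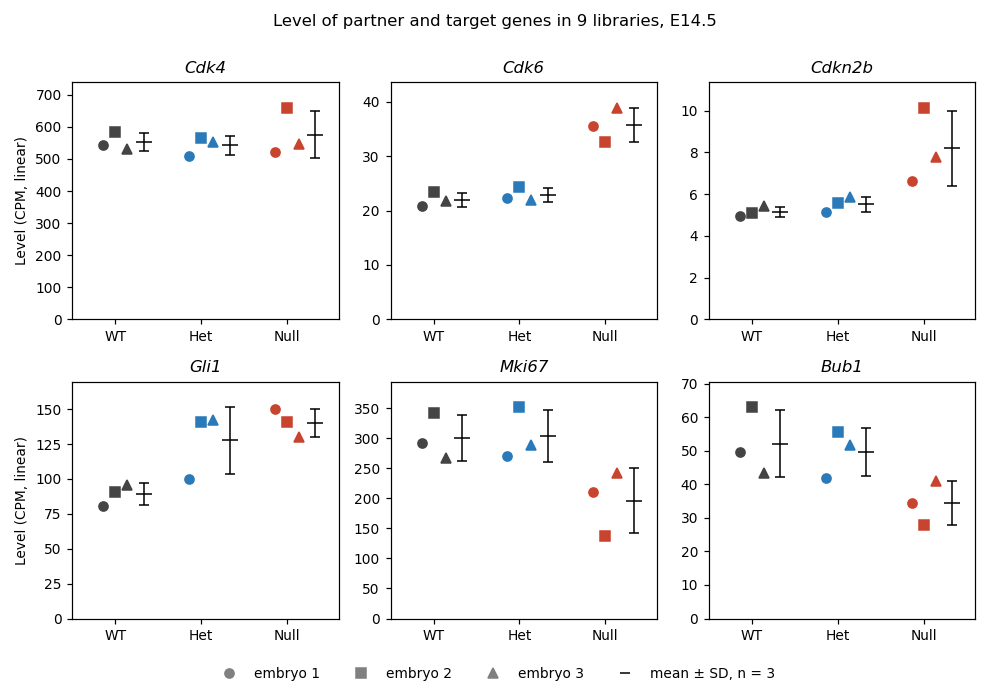
Level in CPM (linear axis from 0) of 6 genes around the inhibitors and D cyclins in the 3 embryos of each genotype, with the mean and SD beside the points. Cdk6 and Cdkn2b are higher in all 3 null embryos than in the 6 others, Gli1 is higher in heterozygotes and null embryos than in WT, and Mki67 and Bub1 are lower in null embryos.

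The other 9 members of the list of G1 kinases and E and A cyclins were not called in any comparison. Cdk2, the main target of Cip/Kip proteins, was at 75.5 ± 1.98 CPM in null embryos and 89.1 ± 4.23 CPM in WT (log2 fold change -0.24, edgeR adjusted p = 0.200), without overlap. Over the list of 10 genes the median log2 fold change of null against WT was 0.05, with 7 positive and 3 negative.

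None of 12 other pocket protein, E2F and DP genes was called by edgeR, DESeq2 or limma-voom in any comparison. By edgeR 2, 1 and 3 of them had an unadjusted p under 0.05, beside 12.2%, 13.1% and 11.4% of all genes. These are for null against WT, heterozygotes against WT and null against heterozygotes. E2f8, an E2F that represses, was at 12.8 ± 2.07 CPM in null embryos and 17.6 ± 0.938 CPM in WT (log2 fold change -0.46, edgeR adjusted p = 0.227). Rbl1, which encodes p107, was at 41.7 ± 7.22 and 52.2 ± 1.44 CPM (-0.33, edgeR adjusted p = 0.366), and Rbl2, which encodes p130, at 26.7 ± 4.21 and 28.5 ± 1.03 CPM (-0.10, edgeR adjusted p = 0.810). E2f8 and Rbl1 did not overlap between null and WT, and Rbl2 did.

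Among 23 genes that E2F factors and dividing cells switch on, edgeR called 0 in null against WT. Of the 23 genes 22 had a negative log2 fold change against WT, with a median of -0.30 beside 0.0097 over all genes, and 7 were below WT without overlap (8.95% of all genes were). Of the 23, 6 had an unadjusted p under 0.05 in edgeR (12.2% of all genes did). Limma-voom called 0 and DESeq2 called 2, Mki67 and Bub1, both lower. DESeq2 called 618 of all genes, out of 31930 that it gave an unadjusted p. Mki67, the marker of cycling cells, was at 292.7, 342.0 and 267.6 CPM in WT, 270.2, 352.5 and 289.6 CPM in heterozygotes and 210.3, 136.7 and 242.1 CPM in null embryos. The null libraries lay below all others (log2 fold change -0.62 against WT, SE 0.200, edgeR adjusted p = 0.242). Bub1, a mitotic checkpoint kinase gene, was at 34.5 ± 6.53 CPM in null embryos and 52.1 ± 10.01 CPM in WT (-0.60, SE 0.179, edgeR adjusted p = 0.206). Within each genotype Mki67 and Bub1 were in the order of mesenchyme RNA, as Ccnd2 was. The part of mesenchyme RNA in their levels was not tested. Against heterozygotes the median of the list was -0.25 with 22 of 23 negative. DESeq2 again called 2 lower, and 354 of all genes, out of 31818 that it gave an unadjusted p. Both edgeR and limma-voom called 0, and 6 of the 23 had an unadjusted p under 0.05 in edgeR (11.4% of all genes did). In heterozygotes against WT the median was -0.03, and 0 genes were called by edgeR, DESeq2 or limma-voom. There 0 of the 23 had an unadjusted p under 0.05 in edgeR (13.1% of all genes did).

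Of 11 genes for the turnover of p27 and of D cyclins, 0 were called by edgeR in null against WT. An unadjusted p under 0.05 was found by edgeR for 1 of them (12.2% of all genes). Limma-voom called 0 and DESeq2 called 1, Skp1a, beside 618 of all genes. Skp1a, which encodes a core part of SCF ubiquitin ligases, was at 769 ± 178 CPM in null embryos and 535 ± 13.0 CPM in WT (log2 fold change 0.52, edgeR adjusted p = 0.213), without overlap. Skp2, the F-box protein that marks p27 for destruction, was at 45.3 ± 7.10 and 50.9 ± 2.89 CPM (-0.17, 95% interval -0.46 to 0.12), and its groups overlapped.

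The list of p53 and 11 of its targets held 0 calls by edgeR, DESeq2 or limma-voom in null against WT. Of this list 3 genes had an unadjusted p under 0.05 in edgeR (12.2% of all genes did). Phlda3 was at 21.9 ± 3.21 CPM in null embryos and 15.5 ± 0.606 CPM in WT (log2 fold change 0.49, edgeR adjusted p = 0.162). Gadd45a was at 6.38 ± 0.687 and 3.75 ± 0.838 CPM (0.76, edgeR adjusted p = 0.181). Both were higher in all null than in all WT libraries, as Cdkn1a was. Zmat3, the other gene at an unadjusted p under 0.05, was lower in all null libraries, at 81.6 ± 5.12 and 91.6 ± 2.35 CPM (-0.17, edgeR adjusted p = 0.407). Trp53 itself, at 130 CPM in both, and Mdm2 (80.2 ± 5.23 and 74.7 ± 3.48 CPM) overlapped.

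Among 10 upstream transcription factors Gli1, a target and effector of Hedgehog signalling, was called higher. It stood at 80.7, 90.8 and 95.8 CPM in WT, 100.2, 140.6 and 142.4 CPM in heterozygotes and 150.0, 141.1 and 129.9 CPM in null embryos. Both mutant genotypes lay above WT without overlap, and overlapped each other. The log2 fold change was 0.65 in null against WT (SE 0.0937, edgeR adjusted p = 0.0165) and 0.52 for heterozygotes against WT (SE 0.121, edgeR adjusted p = 0.0938), or 0.51 with the replicate block (edgeR adjusted p = 0.0140), which called it. The blocked fit also called Myc, which was at 3.21 ± 0.675 CPM in heterozygotes and 7.87 ± 4.03 CPM in WT with overlap (-1.29, edgeR adjusted p = 0.169 without the block). The call of Gli1 in null against WT was lost without WT 1, WT 2 or Null 1, where edgeR adjusted p was between 0.0557 and 0.104. Its log2 fold change was 0.59 to 0.71 over the 6 fits that each left out 1 embryo. The call was also lost with the replicate block (0.65, edgeR adjusted p = 0.0867) and without the 3 libraries rich in mesenchyme (0.61). Foxo4, of the FoxO family that can raise Cdkn1b, was at 149 ± 8.32 CPM in null embryos and 183 ± 5.68 CPM in WT (-0.30, edgeR adjusted p = 0.114). The FoxO form searched was not in the Cdkn1b window shown above, and the part of FoxO factors in the level of Cdkn1b was not tested.

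Podxl and Fam213a were among the genes whose pattern over the 9 libraries was most like that of Cdkn1b. Likeness was the root mean square difference of centred log2 CPM, over 10355 genes with a mean of at least 10 CPM. It was 0.0503 for Podxl, an apical membrane sialomucin, and 0.0660 for Fam213a, beside 0.23 for the spread of Cdkn1b about its own mean. Podxl stood at 162, 188 and 232 CPM on average in WT, heterozygotes and null embryos, an order that its choice by likeness fixes.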

How the data were processed

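Bulk RNA was measured in 9 libraries, 3 per genotype, grouped by the genotype in their labels. The authors made TruSeq mRNA libraries and aligned single reads to mm10 with STAR, and the submitters' processing notes also name cutadapt 1.13, HTSeq 0.6.1p1 and DESeq2. The deposited values are whole-number counts per Ensembl gene, taken as raw counts, although the study's methods name Cufflinks, for assembly and annotation, and not HTSeq. The strand setting is not given in the sources used here, and all 37 mitochondrial genes hold 0 counts. Names, mm10 positions and exon lengths came from GENCODE M21, which names 54165 of 54232 genes.

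Counts were tested with edgeR 4.0.16 in R 4.3.3 (TMM, filterByExpr with a minimum count of 10, quasi-likelihood F test), fitting each pair of genotypes on its own 6 libraries, with Benjamini-Hochberg adjustment over all genes tested. SE and intervals (95%) derive from the same fit. Log2 CPM used a prior count of 2. Totals were 24095322 to 30819118 counts, and errors include the spread between embryos. The scripts were tested on simulated null and WT counts of 17168 genes. There 18 of 100 genes with a true absolute log2 fold change of 0.6 had an edgeR adjusted p under 0.05. At 1.5 it was 71 of 100, and 11 genes with no true change also passed. A gene that was not called may thus still differ by such amounts.

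Alternatives were DESeq2 1.42.0, limma-voom (limma 3.58.1), RLE or no composition scaling, other low count filters, a mesenchyme covariate, a replicate block, all 9 libraries in one fit, no fold threshold and leaving out each embryo. Deviations from the genotype means correlated by 0.693, 0.490 and 0.282 between same-numbered WT and heterozygote libraries. Those with different numbers correlated by -0.603 to 0.409, so WT 3 and Het 3 (0.282) stood below WT 2 and Het 3 (0.409). The labels name no shared litter, so pairing by number is an assumption of the blocked fit. Blocked values of Ccnd2 and Gli1 stand beside that comparison, and for Myc only its call. Leaving out 3 libraries rich in mesenchyme was added after the data were seen. Named genes are the 9 members, Prdm16, Cdk4, Cdk6, Rbl1 and Rbl2, every called gene of a pathway list and, where fewer than 2 were called, the 2 with the smallest p in null against WT, and the 3 genes most like a called member, of which 1 is not reported here. Cdkn2a, Trp53, Mdm2, Zmat3, Aurkb, Top2a, Myc, Mycn and marker genes were named after their values were seen. Members, lists and markers were chosen with earlier results of these data known.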

Additional observations from a re-analysis of the deposited data

How the results depend on the processing

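The log2 fold change of Cdkn1b was positive in every fit of all 3 comparisons. Against WT, the call of Cdkn1b in null embryos held in 7 of 10 alternatives other than leaving out a single embryo, and was lost with the replicate block (log2 fold change 0.52, adjusted p = 0.117, so 0 of the 9 members called), the mesenchyme covariate (0.45, 0 called) and without the 3 libraries rich in mesenchyme (0.57, 0 called). Leaving out 1 embryo gave 0.48 to 0.60, with 0 to 1 members called (Cdkn1a without Null 1, Cdkn1b without Null 3). In heterozygotes against WT the main count of 0 became 1 with no filter on low counts (684 of 32010 genes called in all) and with the block (197 of 17269; Ccnd2 in both, log2 fold change -0.54 with the block, adjusted p = 0.0331), became 1 (Cdkn1c) with no fold threshold, and was 0 to 1 without 1 embryo (Ccnd2 without WT 3). In null embryos against heterozygotes no member was called under any alternative.

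Of 461 values of single genes under an alternative (the members and the called Cdk6 and Gli1, without Cdkn1b in null against WT), 417 kept their sign and their side of the threshold, 16 lost and 4 gained a call, and 24 changed sign, 13 of them without 1 embryo. With the mesenchyme covariate the sign changed for Ccnd2 in null against WT (0.10), heterozygotes against WT (0.17) and null against heterozygotes (-0.057), and, in heterozygotes against WT, for Cdkn1a (-0.0011) and Cdkn2c (0.56). Without the 3 libraries rich in mesenchyme it changed for Cdkn1c (-0.22) and Ccnd3 (-0.0030) in null against WT, for Cdkn1a (-0.0058), Cdkn2c (0.52) and Cdkn2d (-0.012) in heterozygotes against WT, and for Ccnd2 (-0.25) in null against heterozygotes. Ranges over leaving out 1 embryo that crossed 0 were, in null against WT, -0.28 to 0.40 for Cdkn1c, -0.81 to 0.078 for Ccnd2 and -0.18 to 0.046 for Rb1. In heterozygotes against WT they were -0.065 to 0.10 for Cdkn1a, -0.31 to 0.063 for Cdkn2c, -0.0073 to 0.031 for Cdkn2d and -0.13 to 0.00015 for Rb1. In null against heterozygotes they were -0.25 to 0.64 for Ccnd2 and -0.10 to 0.12 for Rb1. The cause was not tested.

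Counts of called list genes moved as follows. In null against WT, the 1 G1 kinase (Cdk6) and the 1 upstream factor (Gli1) became 0 with the block and without the libraries rich in mesenchyme, and 0 to 1 without 1 embryo. Over 10 alternatives other than leaving out a single embryo, the log2 fold change was 0.65 to 0.75 for Cdk6 and 0.59 to 0.66 for Gli1. DESeq2 called 618 of the 31930 genes it gave an unadjusted p, among them 1 turnover gene (Skp1a) and 2 E2F targets (Mki67 and Bub1). For the turnover genes edgeR called 0 to 1 without 1 embryo. In null against heterozygotes Cdk6 became 0 with the block and 0 to 1 without 1 embryo, and the E2F targets went from 0 to 2 with DESeq2, 1 (Mki67) with no filter on low counts and 4 with the mesenchyme covariate (Mki67, Aurkb, Bub1 and Top2a, all lower), in fits that called 354, 366 and 274 genes in all against 105. In heterozygotes against WT the upstream factors went from 0 to 2 with no filter and with the block (Myc and Gli1 in both), to 1 without the libraries rich in mesenchyme (Mycn) and to 0 to 2 without 1 embryo.

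Shares depend on the length used. Without length scaling, in WT, heterozygotes and null embryos, Cdkn1b took 45.7, 53.8 and 52.0% of Cip/Kip RNA, Ccnd1 68.4, 77.2 and 68.3%, Ccnd2 19.7, 12.3 and 17.5% and Ccnd3 11.9, 10.4 and 14.2% of D cyclin RNA. With the longest transcript Cdkn1b took 26.4% in WT and 33.3% in heterozygotes, Ccnd1 74.7, 81.6 and 73.8% and Ccnd3 12.6, 10.7 and 14.9%.

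For null embryos the replicate numbers pair no libraries, since deviations of same-numbered libraries correlated between -0.403 and 0.391 with those of WT and heterozygotes. Between heterozygotes and WT the block changed no call of the members or lists other than Ccnd2, Myc and Gli1. Cdkn2c had 51 to 115 counts in a library. Where a fit leaves 1 library in a group, that library is assumed to vary like the others.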

Other observations

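Cdkn1b and Ccnd1 oppose each other at the step where the G1 kinases act, and their balance within a library does not depend on how libraries are scaled. The ratio of Cdkn1b to Ccnd1 counts was 0.514, 0.456 and 0.518 in WT, 0.510, 0.428 and 0.487 in Prdm16 cGT heterozygotes and 0.815, 0.866 and 0.658 in Prdm16 cGT null embryos. Null libraries lay above the 6 others, and heterozygotes overlapped WT although both genes stood higher in heterozygotes. The group values were 0.496 ± 0.0344 in WT, 0.475 ± 0.0425 in heterozygotes and 0.780 ± 0.108 in null embryos (SD, n = 3). The ratio was chosen after its values were seen, it is not scaled by exon length, and no test was run on it.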
